A study of Mus musculus with 6 samples.

Results

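Type 2 chemokines are small secreted proteins that draw eosinophils, basophils and T helper 2 cells into tissue, and 5 of them were followed here together with the 3 receptors they act on. The genes were taken by symbol from the deposited expression table: the ligands Ccl1, Ccl11, Ccl17, Ccl22 and Ccl24 and the receptors Ccr3, Ccr4 and Ccr8, 8 genes of the 19309 listed. All 8 were present and all 8 were tested. They were measured by RNA sequencing of whole ear skin from 3 C57BL/6 mice, which the labels give as 6 to 8 weeks old. Every animal was sensitised with 25 µL of a 0.5% solution of DNFB on the first day (2,4-dinitrofluorobenzene, a reactive chemical that couples to proteins of the skin and to which T cells then respond). From day 6 the right ear was given 10 µL of the solvent, a mix of 80% acetone and 20% olive oil, and the left ear the same volume with 0.25% DNFB, and ears were collected after 6 days of this. The vehicle ears therefore came from sensitised animals that carried a DNFB-treated ear on the other side, and no ear of an unsensitised mouse was analysed here. The DNFB group and the vehicle group hold 3 libraries each, 1 per mouse. The sex of the animals is not given in the labels.

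In this family the ligands and receptors form 3 sets. CCL11 (eotaxin) and CCL24 (eotaxin 2) act on CCR3, the receptor of eosinophils, basophils and some mast cells. CCL17 and CCL22 act on CCR4, carried by T helper 2 cells, regulatory T cells and skin-homing T cells, and are made by dendritic cells and, for CCL17, also by keratinocytes and endothelium of inflamed skin. CCL1 acts on CCR8, found on regulatory and T helper 2 cells of skin, and in mice CCL8 is a further CCR8 ligand. Interleukin 4 and interleukin 13, acting through the transcription factor STAT6, are known inducers of the eotaxins and of CCL17.

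Libraries held 19556754 to 20336945 estimated counts. The keratinocyte, fibroblast, muscle and fat transcripts of ear tissue were abundant: Krt14 measured 3677 ± 576 and 4559 ± 986 CPM (counts scaled to a common library total with TMM factors, mean ± SD, n = 3) in vehicle and DNFB ears, and the muscle myosin Myh4 292 ± 92.7 and 44.5 ± 20.0 CPM. On the first principal component of log2 CPM the vehicle ears lay between −74.7 and −64.9, whereas mice 1, 2 and 3 had their DNFB ears at 87.6, 81.3 and 44.6, so the DNFB ear of mouse 3 stood nearest to the vehicle ears. Values without that ear are given for each of the 8 genes and for some of the other genes. In whole tissue, fewer cells of a type and less RNA per cell cannot be told apart, and the same holds for more.

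The regulatory sequence just upstream of 4 of the genes is shown because the results turn on them: Ccl17 and Ccl22, ligands of the same receptor with unlike patterns across ears, Ccl1, the ligand with the largest fold change, and Ccr3, the receptor with the largest. Each stretch is the 250 bases before the gene's annotated start, from RefSeq on build GRCm38.p6, written 5′ to 3′ on the gene's own strand. Ccl17 is shown from chr8:94810203-94810452, plus strand, Ccl22 from chr8:94745434-94745683, plus strand, Ccl1 from chr11:82179813-82180062, minus strand and Ccr3 from chr9:124021721-124021970, plus strand. Capitals mark matches to 4 motifs searched on both strands: the STAT motifs TTCNNNGAA and TTCNNNNGAA, the second being the spacing preferred by STAT6, the AP-1 motif TGANTCA, and the kappa B consensus. Of the 8 genes, 6 had an entry. Ccl11 and Ccl24 had none, so no motif was searched for in them.
Ccl17: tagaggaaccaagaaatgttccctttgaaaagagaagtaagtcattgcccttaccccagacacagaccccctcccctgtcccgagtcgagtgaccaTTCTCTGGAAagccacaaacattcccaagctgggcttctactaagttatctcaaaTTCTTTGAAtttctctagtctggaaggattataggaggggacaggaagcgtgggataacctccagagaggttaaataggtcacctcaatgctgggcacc
Ccl22: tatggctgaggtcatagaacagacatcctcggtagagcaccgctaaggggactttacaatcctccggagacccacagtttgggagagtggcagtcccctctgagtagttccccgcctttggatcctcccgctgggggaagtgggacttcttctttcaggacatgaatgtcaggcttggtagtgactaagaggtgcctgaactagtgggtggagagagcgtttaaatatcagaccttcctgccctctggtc
Ccl1: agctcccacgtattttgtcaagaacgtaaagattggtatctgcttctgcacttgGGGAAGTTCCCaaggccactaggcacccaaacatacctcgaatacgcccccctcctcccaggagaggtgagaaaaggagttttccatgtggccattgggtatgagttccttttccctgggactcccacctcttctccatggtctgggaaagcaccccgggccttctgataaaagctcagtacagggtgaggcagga
Ccr3: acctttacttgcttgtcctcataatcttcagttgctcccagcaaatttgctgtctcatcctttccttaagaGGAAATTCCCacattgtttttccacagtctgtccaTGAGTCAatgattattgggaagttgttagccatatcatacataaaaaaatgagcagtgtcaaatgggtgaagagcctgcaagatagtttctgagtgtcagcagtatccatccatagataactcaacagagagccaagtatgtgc

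The Ccl17 stretch held 1 match to each STAT motif, TTCTCTGGAA from base −154 and TTCTTTGAA from base −99 counted from the start. The Ccl22 stretch held no match to any of the 4 motifs. In Ccl1 the kappa B consensus matched on both strands at overlapping positions, from bases −196 and −195. Ccr3 held 1 kappa B match from base −179 and 1 AP-1 match, TGAGTCA, from base −144. The AP-1 motif was also present in Ccr4, from base −143, and Ccr8 had no match. Among all 32851 RefSeq windows of this length, 7.02% held the STAT motif with a spacer of 3 bases, 5.85% that with a spacer of 4, 6.75% the AP-1 motif and 7.25% the kappa B consensus. The matches are a description of the letters and not of binding.

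In DNFB ears, 5 of the 8 genes were higher, none was lower and 3 did not pass. By edgeR's quasi-likelihood test at an adjusted p of 0.05, Ccl1, Ccl11, Ccl24, Ccr3 and Ccr8 rose, while Ccl17, Ccl22 and Ccr4 did not pass. Over all 15317 genes tested, 51.3% passed in either direction, 25.9% as higher and 25.4% as lower in DNFB ears. The ligands rose in 3 of 5 cases and the receptors in 2 of 3. The median log2 fold change of the 8 was 1.62, against −0.02 over all genes tested. Of the 5 that rose, Ccl1, Ccr3 and Ccr8 reached the minimum count in all 3 libraries of the DNFB group only, so they had to differ in order to be tested, and the count and median are no support by themselves. The levels of the 5 did not overlap between the groups, all DNFB ears lying above all vehicle ears, as in 30.6% of the genes tested. DNFB ears and vehicle ears overlapped for the other 3.

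**Figure D1:**
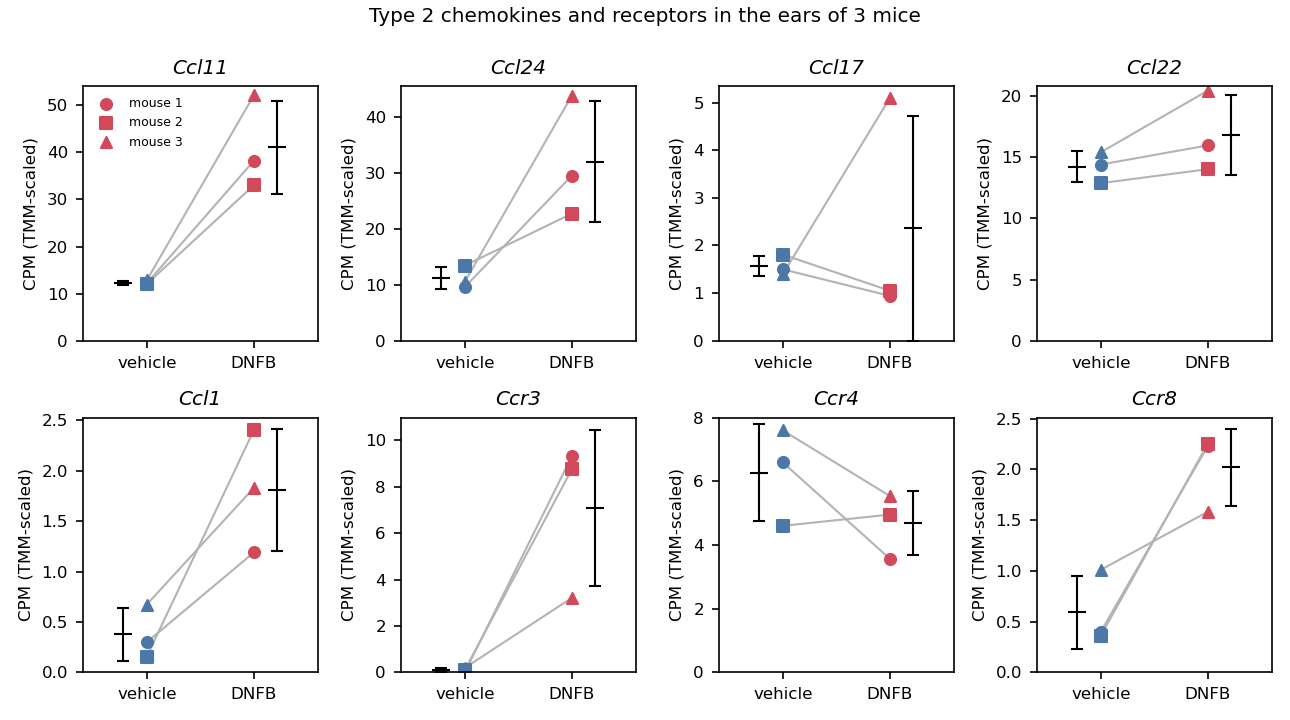
Level of each gene in each library, in TMM-scaled CPM on a linear axis. Blue points are vehicle ears, red points DNFB ears, marker shape and grey lines tie the ears of 1 mouse, and the black bars beside them are mean ± SD (n = 3). Red and blue points are apart for Ccl11, Ccl24, Ccl1, Ccr3 and Ccr8 and overlap for Ccl17, Ccl22 and Ccr4, and only the mouse 3 triangle of Ccl17 is high among its DNFB points.

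The eotaxins both rose, and they had the highest mean TPM (a level scaled for gene length) of the 8 genes in both groups. Ccl11 (Entrez gene 20292), the founding eotaxin, measured 12.2, 12.0 and 12.8 CPM in the vehicle ears of mice 1, 2 and 3 and 38.2, 33.0 and 52.0 CPM in their DNFB ears. The vehicle values lay close together and every DNFB ear was at least 2.74-fold above the vehicle ear of the same mouse, with the highest value in mouse 3. Group means were 12.4 ± 0.422 and 41.0 ± 9.84 CPM, a 3.32-fold rise (log2 fold change 1.73 ± 0.18 SE, adjusted p = 0.000425, edgeR). Without the DNFB ear of mouse 3 the log2 fold change was 1.52. Ccl24 (Entrez gene 56221), known chiefly from macrophages and epithelium, measured 9.59, 13.4 and 10.5 CPM in vehicle ears and 29.5, 22.7 and 43.7 CPM in DNFB ears of mice 1, 2 and 3. Here too the groups were apart and mouse 3 was highest, while mouse 2 showed the smallest rise, 1.69-fold. The rise over the groups was 2.86-fold (log2 fold change 1.52 ± 0.26, adjusted p = 0.00291, edgeR). Leaving out the DNFB ear of mouse 3 gave a log2 fold change of 1.22 for Ccl24 (adjusted p = 0.000533, edgeR).

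The ratio of the eotaxins to each other overlapped between the groups. On the log2 scale of TPM with 0.1 added, the ratio of Ccl11 to Ccl24 was 0.40, −0.15 and 0.25 in vehicle ears and 0.29, 0.49 and 0.21 in DNFB ears of mice 1, 2 and 3. The ranges overlapped, and the ratio was higher in the DNFB ear in 1 of 3 mice. The means were 0.17 ± 0.29 and 0.33 ± 0.14 (SD, n = 3), a difference of 0.16 (exact permutation test, two-sided, p = 0.5, adjusted over 2 ratios 1, where 0.1 is the smallest p that 3 against 3 libraries allow).

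Ccr3 (Entrez gene 12771), the eotaxin receptor, was at the edge of detection in vehicle ears and clearly present in DNFB ears. Vehicle ears of mice 1, 2 and 3 held 0, 2 and 4 counts and their DNFB ears 188, 175 and 65 counts. In CPM the DNFB ears measured 9.32, 8.75 and 3.21, so mouse 3 was the lowest of the 3, unlike for the eotaxins. Within mouse 1 the DNFB ear was at least 62.2-fold higher, against a floor of 3 counts in the vehicle library, and within mice 2 and 3 the ratios were 84.7 and 16.7. Over the groups the log2 fold change was 6.07 ± 0.71 (adjusted p = 0.000695, edgeR), and the ratio of summed counts, 428 against 6, was 71.0 (exact 95% interval 32.4 to 195, counting error only). The log2 fold change was 6.97 without the vehicle ear of mouse 3 and 5.52 without that of mouse 1. Without the DNFB ear of mouse 3 it was 6.42.

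Markers of the cells known to carry CCR3 moved unevenly. Of 6 eosinophil markers tested, 3 were higher and 2 lower in DNFB ears, with a median log2 fold change of 0.44. As background for the counts of this and the later lists, 25.9% of all genes tested were higher and 25.4% lower. The eosinophil lectin Siglecf measured 0.232 ± 0.0727 CPM in vehicle and 5.78 ± 2.62 CPM in DNFB ears, a rise of 4.60 on the log2 scale (adjusted p = 0.000591, edgeR), and the interleukin 5 receptor gene Il5ra rose by 1.84, a call that ended without both ears of mouse 1 (adjusted p = 0.0745) or of mouse 2 (adjusted p = 0.117). The granule gene Prg2 rose by 4.51, and by 6.01 once the mouse 3 vehicle library was left out. The ribonuclease genes Ear6 and Ear2, which macrophages also express and which are close paralogs that can share reads, measured 16.3 ± 2.78 and 11.8 ± 1.79 CPM in vehicle ears. Ear6 fell by 1.44 (adjusted p = 0.00508, edgeR), a call that ended without both ears of mouse 2 (−1.20, adjusted p = 0.0957). Ear2 missed the threshold at −0.97 (adjusted p = 0.105, edgeR), but was called lower in the fit blocked by mouse (−1.14, adjusted p = 0.0343) and when the mouse 3 DNFB library was left out (adjusted p = 0.000996). Epx, the eosinophil peroxidase, was nearly absent, with 2 counts in the vehicle group and 2 in the DNFB group, and Prg3 had 2 and 10. The summed level of the 8 listed genes was 28.6 to 31.5 CPM in vehicle ears and 20.8 to 24.6 CPM in DNFB ears, and 3 ribonuclease genes, Ear1, Ear2 and Ear6, made up 27.7 to 30.7 CPM of it in vehicle ears. The other 5 genes of the list summed to 0.975, 0.813 and 1.27 CPM in the vehicle ears of mice 1, 2 and 3 and to 13.3, 12.9 and 4.91 CPM in their DNFB ears, a split made after the values were seen. Without the ribonucleases the sum was thus higher in every DNFB ear and lowest among them in mouse 3. Siglecf and Prg2 reached the minimum count in DNFB libraries only and Ear1 in vehicle libraries only, so each had to differ to be tested.

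Among basophil and mast cell markers 7 of 9 were higher and none lower, with a median of 0.58. The basophil protease Mcpt8 had 3, 1 and 3 counts in the vehicle ears of mice 1, 2 and 3 and 596, 329 and 177 counts in their DNFB ears, again lowest in mouse 3 (log2 fold change 7.22, adjusted p = 0.000308, edgeR). Mcpt8 reached the minimum count in DNFB libraries only, so it had to differ in order to be tested. The IgE receptor chain Fcer1a rose by 2.78, while Kit, the stem cell factor receptor of mast cells, missed the threshold at 0.17 (adjusted p = 0.458, and 0.0496 once the mouse 3 DNFB library was left out). Ms4a2, a further IgE receptor chain, missed it at −0.21 (adjusted p = 0.260, edgeR). The summed level of the list was 572 to 646 CPM in vehicle ears and 878 to 915 CPM in DNFB ears. Most of it came from the mast cell proteases Mcpt4, Cpa3, Cma1 and Tpsb2, at means of 216, 156, 121 and 80.8 CPM in vehicle ears. In DNFB ears their means were 292.5, 233, 203 and 110 CPM. Mcpt8 had means of 0.115 CPM in vehicle and 18.25 CPM in DNFB ears. The part of either cell type in the level of Ccr3 was not tested.

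The CCR4 ligands missed the threshold in the comparison of the groups. Ccl22 (Entrez gene 20299), a chemokine of dendritic cells and macrophages, measured 14.4, 12.9 and 15.4 CPM in the vehicle ears of mice 1, 2 and 3 and 16.0, 14.01 and 20.4 CPM in their DNFB ears. It was higher in the DNFB ear of each mouse, by 1.11-fold, 1.09-fold and 1.33-fold, yet the groups overlapped. The change over the groups, 0.24 ± 0.16 on the log2 scale, missed the threshold (adjusted p = 0.254, edgeR) and was 0.08 when the mouse 3 DNFB library was left out.

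Ccl17 (Entrez gene 20295), known as a marker chemokine of atopic skin, was set apart by a single ear. Its estimated counts were 30, 35 and 29 in the vehicle ears of mice 1, 2 and 3 and 19, 21 and 103 in their DNFB ears, or 1.50, 1.81 and 1.39 against 0.941, 1.05 and 5.09 CPM. The DNFB ears of mice 1 and 2 lay below all vehicle ears, at 0.628 and 0.581 of the level in the vehicle ear of the same mouse, and that of mouse 3 lay above them all, at 3.65-fold. The group comparison missed the threshold (log2 fold change 0.59 ± 0.65, adjusted p = 0.472, edgeR), with a DNFB mean of 2.36 ± 2.36 CPM. Without the DNFB ear of mouse 3 the sign turned (−0.65, adjusted p = 0.0940, edgeR), and without both ears of mouse 3 it was −0.72 (adjusted p = 0.0796, edgeR). The data therefore give no common direction for Ccl17.

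The excess of Ccl17 in the DNFB ear of mouse 3 was large beside that of other genes. It was 5.11-fold above the mean of the other DNFB ears, a log2 difference of 2.35. Among 15081 other tested genes with a mean of at least 10 counts in DNFB ears, 8 had a difference at least as large. These included the chemokine Ccl20, an attractant of CCR6-bearing cells, with 31, 42 and 245 counts in the DNFB ears of mice 1, 2 and 3, and the stromelysin Mmp10, with 80, 170 and 742. Both were singled out after their values were seen. The same difference was 0.45 for Ccl22, 0.55 for Ccl11, 0.75 for Ccl24, 0.03 for Ccl1, 0.38 for Ccr4, −0.50 for Ccr8 and −1.49 for Ccr3. Against the mean of the other DNFB ears, Ccr3 and Ccr8 were thus lower in that ear and the remaining genes were not, with Ccl1 lying between the other DNFB ears. The summed level of keratinocyte markers was 8138, 12810 and 14100 CPM in the DNFB ears of mice 1, 2 and 3, the highest in mouse 3, against 16100 to 21380 CPM in vehicle ears, and its part in the level of Ccl17 was not tested.

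**Figure D2:**
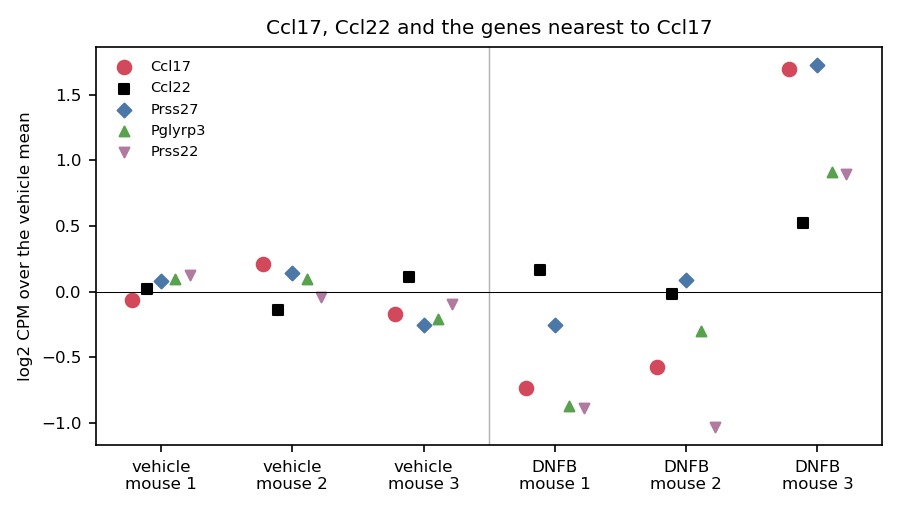
Log2 CPM relative to the mean of the 3 vehicle ears (vertical axis) in each of the 6 libraries (horizontal axis), for Ccl17, Ccl22 and the 3 genes whose centred log2 CPM lay nearest to Ccl17. Large red circles are Ccl17, which is high in the DNFB ear of mouse 3 alone, as are Prss27, Pglyrp3 and Prss22, while the black squares of Ccl22 stay near 0.

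The ratio of Ccl17 to Ccl22 showed the same ear. On the log2 scale of TPM with 0.1 added it was −1.37, −0.90 and −1.52 in the vehicle ears of mice 1, 2 and 3 and −2.13, −1.79 and −0.08 in their DNFB ears. It lay below the vehicle range in mice 1 and 2 and above it in mouse 3. The means, −1.26 ± 0.33 and −1.33 ± 1.10 (SD, n = 3), differed by −0.07 (exact permutation test, two-sided, p = 1, adjusted over 2 ratios 1). In RefSeq the genes Ccl22 and Ccl17 are neighbours on chromosome 8 with the chemokine gene Cx3cl1 between them. Cx3cl1, named for its place, measured 34.2 to 42.5 CPM in vehicle ears and 23.8 to 34.0 CPM in DNFB ears, and its log2 fold change of −0.36 missed the threshold (adjusted p = 0.0920, edgeR).

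Ccr4 (Entrez gene 12773), the receptor for both, measured 6.59, 4.60 and 7.60 CPM in the vehicle ears of mice 1, 2 and 3 and 3.57, 4.95 and 5.54 CPM in their DNFB ears. It was lower in the DNFB ear in mice 1 and 3 and slightly higher in mouse 2, and the groups overlapped. The log2 fold change was −0.42 ± 0.25 and did not pass (adjusted p = 0.193, edgeR). Leaving out the DNFB ear of mouse 3 gave −0.56, which did not pass either (adjusted p = 0.0936, edgeR). Among T helper and regulatory T cell markers, whose cells are known to carry CCR4, 8 of 10 were higher and none lower, with a median log2 fold change of 1.92. The regulatory T cell factor Foxp3 went from 0.664 ± 0.191 to 18.4 ± 5.18 CPM, the checkpoint receptor Ctla4 from 0.627 ± 0.203 to 27.5 ± 10.9 CPM and the costimulator Icos rose by 4.45 on the log2 scale. Foxp3 and Ctla4 reached the minimum count in all 3 libraries of the DNFB group only. The count and median of this list are thus no support by themselves. Cd28 missed the threshold at 0.42 (adjusted p = 0.266, and 0.0343 once the mouse 3 DNFB library was left out). The summed level of the list was 49.9 to 57.0 CPM in vehicle ears and 245, 206 and 124 CPM in the DNFB ears of mice 1, 2 and 3. The list was thus higher in the DNFB ear of every mouse, while Ccr4 was lower there in mice 1 and 3.

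CCR8 and its ligand both rose from low levels. Ccl1 (Entrez gene 20290), a product of activated T cells and mast cells, had 6, 3 and 14 counts in the vehicle ears of mice 1, 2 and 3 and 24, 48 and 37 counts in their DNFB ears, or 0.300, 0.155 and 0.673 against 1.19, 2.40 and 1.83 CPM. The groups were apart, with within-mouse ratios of 3.97, 15.5 and 2.72. The log2 fold change was 2.23 ± 0.50 (adjusted p = 0.00915, edgeR). It was 2.96 without the vehicle ear of mouse 3 and 2.22 without the DNFB ear of mouse 3. The Ccl1 call ended without both ears of mouse 2 (1.62, adjusted p = 0.0997, edgeR). Ccr8 (Entrez gene 12776) had 8, 7 and 21 counts in vehicle ears and 45, 45 and 32 in DNFB ears of mice 1, 2 and 3, or 0.400, 0.362 and 1.01 against 2.23, 2.25 and 1.58 CPM. The ears of mouse 3 lay nearest to each other, 1.57-fold apart against 5.58-fold and 6.22-fold in mice 1 and 2. The log2 fold change was 1.75 ± 0.41 (adjusted p = 0.0109, edgeR), and 2.40 once the mouse 3 vehicle library was left out. It was 1.90 once the mouse 3 DNFB library was left out. The call ended without both ears of mouse 1 (1.46, adjusted p = 0.0834, edgeR) or of mouse 2 (1.42, adjusted p = 0.129, edgeR).

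**Figure D3:**
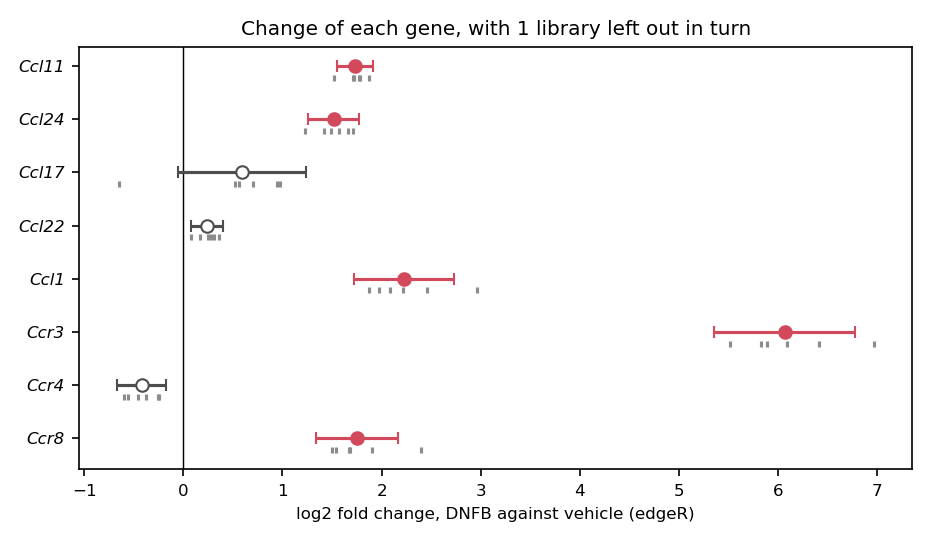
Log2 fold change of DNFB against vehicle ears for each gene (horizontal axis), with edgeR's standard error as the bar. Filled red circles passed an adjusted p of 0.05, open circles did not, and grey ticks are the 6 values with 1 library left out in turn. The ticks stay on 1 side of 0 for all genes but Ccl17, where a single tick lies at −0.65.

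Compared per length, the order of the genes changed between the groups. On the TPM scale the vehicle ears ran from Ccl11 at 20.4 ± 1.82 through Ccl24 at 18.3 ± 2.99, Ccl22 at 13.7 ± 1.95, Ccl17 at 5.61 ± 0.547, Ccr4 at 4.05 ± 1.19, Ccl1 at 1.43 ± 1.08 and Ccr8 at 0.920 ± 0.617 to Ccr3 at 0.0533 ± 0.0551 (mean ± SD, n = 3). In that order Ccl11 and Ccl24, Ccl24 and Ccl22, and Ccl1 and Ccr8 had overlapping ranges, and the other neighbours were apart. In DNFB ears the eotaxins led with mean TPM levels of 66.9 ± 15.6 and 54.1 ± 17.3, apart from Ccl22 at 15.9 ± 3.00. Below Ccl22 came Ccl17 at 8.46 ± 8.43, Ccl1 at 6.62 ± 2.25, Ccr3 at 3.69 ± 1.77, Ccr8 at 3.05 ± 0.592 and Ccr4 at 2.97 ± 0.669 TPM, each overlapping the next. Ccr4 was the highest receptor in vehicle ears, at 2.76 to 5.11 TPM against at most 1.63 for Ccr8 and 0.11 for Ccr3. In DNFB ears the ranges of the 3 receptors overlapped.

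**Figure D4:**
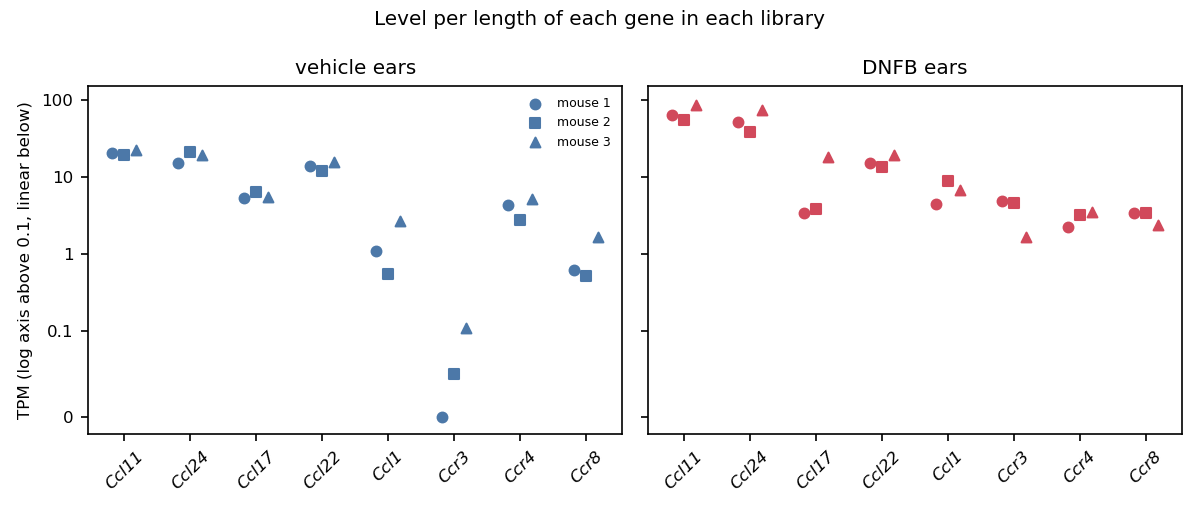
Level per length of each gene in each library, in TPM on an axis that is logarithmic above 0.1 and linear below, for vehicle ears (left) and DNFB ears (right). Marker shape gives the mouse. Ccr3 lies between 0 and 0.11 in vehicle ears and between 1.65 and 4.83 in DNFB ears, and the eotaxins are the highest genes of the DNFB panel in every mouse.

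Among other ligands of the same receptors, Ccl5, Ccl7 and Ccl8 rose. In a list of 7 further ligands and of genes that bind or cleave these chemokines, 5 rose, 1 fell and 1 missed the threshold, with a median log2 fold change of 0.84. Ccl8, in mice a CCR8 ligand, measured 50.9 ± 3.27 CPM in vehicle and 824 ± 440 CPM in DNFB ears, a rise of 4.02 on the log2 scale (adjusted p = 0.000528, edgeR). Ccl7, a monocyte attractant that also acts on CCR3, went from 8.65 ± 1.75 to 280 ± 70.6 CPM, and Ccl5, a T cell and macrophage chemokine that also acts on CCR3, rose by 6.15. Ccl28, an epithelial ligand of CCR3 and CCR10, was lower by 1.18 with an adjusted p of 0.0433 by edgeR, and this call ended without any single library other than the vehicle ear of mouse 3 (adjusted p 0.0646 to 0.150). With all libraries kept, it also ended by limma-voom (−1.05, adjusted p = 0.0894) and by limma on log2 TPM (−0.95, adjusted p = 0.0622). Ackr2, the decoy receptor of inflammatory CC chemokines, missed the threshold at 0.35 (adjusted p = 0.0892, and 0.0420 once the mouse 3 vehicle library was left out). Of 17 other CC chemokine ligands and receptors tested, 11 rose, 2 fell and 4 missed the threshold, with a median of 3.02. The macrophage chemokines Ccl4 and Ccl3 rose by 8.44 and 7.85 on the log2 scale and the CC chemokine receptor gene Ccr1 by 6.41, and Ccl20 missed the threshold at −1.24 (adjusted p = 0.222, and 0.00219 at −2.77 once the mouse 3 DNFB library was left out). Ccl4 reached the minimum count in DNFB libraries only, so it had to differ in order to be tested. Ccl3 and Ccl5 reached the minimum count in all 3 libraries of the DNFB group only. The counts and medians of both lists are thus no support by themselves. Whether the groups of genes differ from each other was not tested.

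Cytokines and signalling genes upstream of these chemokines were mostly higher, 10 of the 12 tested, with 1 lower and a median log2 fold change of 2.36. Il4, Il13 and Csf2 reached the minimum count in DNFB libraries only, so they had to differ in order to be tested. The count and median are thus no support by themselves. Il4 had 2, 1 and 0 counts in the vehicle ears of mice 1, 2 and 3 and 171, 95 and 25 in their DNFB ears, and Il13 had 2, 5 and 9 against 146, 89 and 74. Both cytokines were lowest among DNFB ears in mouse 3, and a link between them and the chemokines was not tested. The Il4 call ended without both ears of mouse 2 (adjusted p = 0.0547, edgeR). The gene that fell was Gata3, the T helper 2 lineage factor, which skin epithelium also expresses, at 68.0 ± 8.63 and 36.7 ± 9.35 CPM (log2 fold change −0.89, adjusted p = 0.00921, edgeR, and 0.0651 without both ears of mouse 2). It was named after its values were seen. The receptor chain Il4ra, shared by both cytokines, measured 38.7 ± 6.97 CPM in vehicle and 683 ± 82.9 CPM in DNFB ears, a rise of 4.14 on the log2 scale (adjusted p = 2.48e-05, edgeR). The interleukin 33 receptor Il1rl1 went from 8.33 ± 0.803 to 197 ± 120 CPM. Il5, Il9 and Il31 had too few counts to be tested, with 5, 0 and 0 counts over the vehicle group and 10, 3 and 1 over the DNFB group.

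Markers of cells known to make these chemokines, and of the muscle, cartilage and fat of the ear, were followed in the same way. Among dendritic and Langerhans cell markers 6 of 10 were higher and 2 lower (median log2 fold change 0.77). The costimulators Cd80 and Cd86 rose by 3.21 and 2.09, the integrin Itgax by 2.28 (a call that ended without both ears of mouse 2, adjusted p = 0.0621), and Mgl2, a lectin of dermal dendritic cells, missed the threshold at −0.16 (adjusted p = 0.711, and 0.00292 at −0.71 once the mouse 3 DNFB library was left out). The 2 that fell, named after their values were seen, were the Langerhans cell lectin Cd207, from 41.9 ± 5.48 to 17.0 ± 12.1 CPM (−1.30, adjusted p = 0.0420, edgeR), and the adhesion molecule Epcam, which Langerhans cells share with epithelium (−1.05, adjusted p = 0.0409, edgeR). Both calls held with the mouse 3 DNFB library left out and were lost on leaving out any of the other 5 (adjusted p 0.0785 to 0.125 for Cd207 and 0.0528 to 0.124 for Epcam). Resident and alternatively activated macrophage markers comprised 8 higher and no lower genes among 10 (median 1.67), among them the mannose receptor Mrc1, from 132 ± 13.3 to 578 ± 75.6 CPM, and the chitinase-like Chil3, which rose by 5.92. Retnla and Lyve1 missed the threshold at −0.28 and 0.17 (adjusted p = 0.590 and 0.439, edgeR). Retnla ranged from −0.87 to 0.07 with 1 library left out and passed in 1 of those 6 fits. The summed level of the macrophage list was 515 to 578 CPM in vehicle ears and 2437, 1897 and 1411 CPM in the DNFB ears of mice 1, 2 and 3, lowest among DNFB ears in mouse 3. Of 8 fibroblast markers 2 were higher and 2 lower (median 0.13), near the 25.9% and 25.4% of all genes tested. Pdgfra was up by 1.21, Dpt down to 191 ± 26.4 from 382 ± 36.2 CPM and Lum not past the threshold (0.19, adjusted p = 0.276, edgeR). The summed level of the fibroblast list was 10300 to 10670 CPM in vehicle ears and 9499 to 11500 CPM in DNFB ears, so the ranges overlapped. Of 8 keratinocyte markers 4 were lower and none higher (median log2 fold change −0.995), with Lor, of the cornified layer, at 2549 ± 455 and 587 ± 325 CPM, a call that ended without both ears of mouse 2 (adjusted p = 0.0639). Muscle, cartilage and fat markers were lower in 7 of 8 cases (median −1.44), with Adipoq at 109 ± 14.5 and 32.8 ± 2.99 CPM. The part of these cells in the levels of the chemokines was not tested.

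**Figure D5:**
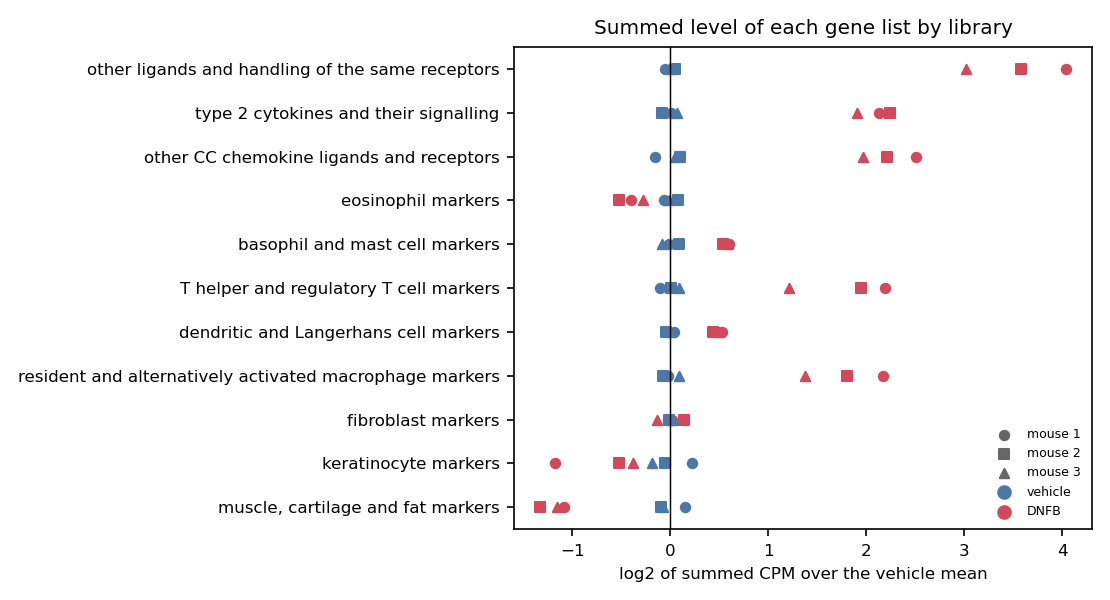
Summed CPM of each gene list in each library, as log2 relative to the mean of the 3 vehicle ears. Blue is vehicle, red is DNFB and marker shape gives the mouse. The lists of other ligands, of type 2 cytokine genes and of T cell and macrophage markers are higher in all DNFB ears with mouse 3 the lowest of them, eosinophil, keratinocyte and muscle, cartilage and fat sums are lower, and fibroblast sums overlap.

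Genes whose profile over the 6 libraries lay nearest to each of the 8 were named by the root mean square difference of log2 CPM, each gene centred on its own mean. Nearest to Ccl11 were Slfn5, Nlrc5 and Parp9, at 0.0931, 0.117 and 0.129 log2 units. Nearest to Ccl24 were Ly6a, Cgas and Casp1, at 0.148 to 0.199. Ccr3 had Gpr84, Il4i1 and Ubd, at 0.200 to 0.320, and Gpr84 measured 0, 0.155 and 0.192 CPM in vehicle ears and 8.22, 11.4 and 3.11 CPM in DNFB ears of mice 1, 2 and 3. For Ccl17 they were Prss27, Pglyrp3 and Prss22, at 0.257 to 0.315. Prss27, nearest of these, measured 15.0, 15.6 and 11.9 CPM in vehicle ears and 11.8, 15.1 and 46.9 CPM in DNFB ears, so it too was high in the DNFB ear of mouse 3 alone. Ccl1 had Ciita, Egr1 and Tm4sf19, at 0.278 to 0.368, and Ccr8 had Ptgir, Hhex and Kcnn4, at 0.168 to 0.187. Ccl22 and Ccr4, with the smallest fold changes, lay nearest to Tango6, at 0.0461, and to Celsr1, at 0.0677. With 6 libraries in 2 groups genes that differ between the groups share that difference, and the likenesses are given as a description.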

How the data were processed

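RNA from 6 ear libraries (3 DNFB, 3 vehicle) was sequenced as single-end reads of 50 bases after oligo(dT) selection, per the labels' protocols. Per the submitters' processing notes HISAT and build GRCm39 were used. How reads were counted per gene, against which annotation and with what strand setting, is not given in these sources, so overlapping genes may share counts. The authors deposited estimated counts, FPKM and TPM per library and their group means, per the file headers. The deposited counts carry decimals (32.7% to 34.5% of values in the vehicle libraries and DNFB library 1, 56.3% and 58.4% in DNFB libraries 2 and 3) and were rounded. TPM served for levels between genes and FPKM for a check.

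DNFB was compared with vehicle in edgeR 4.0.16 under R 4.3.3 (TMM, filterByExpr at a minimum count of 10, quasi-likelihood test, two-sided, Benjamini-Hochberg over 15317 genes, no block). The standard error is the absolute log2 fold change over the square root of F. Code was tested on simulated data. Mouse numbers tie the ears of 1 animal, and the correlation of same-mouse deviations from group means was −0.03, −0.15 and −0.05, so the block was an alternative. Nothing says the RNA of an ear was extracted more than once, and the mouse is the replicate. Alternatives used other scalings and filters, DESeq2 1.42.0, limma 3.58.1 (voom, and log2 TPM with 0.1 added), and left out libraries or mice. The genes and lists were chosen with earlier results of these data known. All 8 genes are named, as are, in part, the 4 most changed genes that passed and the 2 most abundant that did not in each list, and the 3 nearest genes in profile whose mean log2 CPM was 1 or more. Intervals and floors reflect counting error alone, because reads amplified by PCR and lacking molecular identifiers are not separate molecules. Positions of RefSeq sequences are on GRCm38.p6, another build than the authors', and were matched by symbol only.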

Additional observations from a re-analysis of the deposited data

How the results depend on the processing

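With the mouse as a block, with scaling by DESeq2 or by the upper quartile, without a filter or with one of 1 CPM in 3 libraries, and by DESeq2, limma-voom or limma on log2 TPM, 5 of the 8 genes passed each time, with the directions given. The replicate block changed no call among the 8 or among the other genes it was read for, apart from Ear2 (−1.14, adjusted p = 0.0343, edgeR). It gave 6601 genes past the threshold in place of 7862. Ear2 was also called lower by limma-voom (−1.18, adjusted p = 0.0481), while the Ccl28 call ended by both limma fits. Leaving out libraries or mice gave 2594 (without mouse 2) to 9108 genes past the threshold, with 4487 without mouse 1, and 3 to 5 of the 8. Over those alternatives the log2 fold change ranged from 1.62 to 2.96 for Ccl1, from 1.42 to 2.55 for Ccr8, from −0.72 to 1.06 for Ccl17 and from 5.27 to 7.32 for Ccr3 (4.55 on log2 TPM with 0.1 added, against 6.07). With single libraries left out, the log2 ratio difference of Ccl17 to Ccl22 ranged from −0.69 to 0.33. It was not computed with a mouse left out. With the mice as pairs that difference was −0.07. Without DNFB replicates 2 and 3, an alternative added after seeing the data because their counts carry more decimals, 4 of the 8 passed, Ccl1 did not (1.65, adjusted p = 0.0815, edgeR), Ccl17 turned (−0.72), and Krt14 turned (−0.090). The lone DNFB library is then assumed to vary like the vehicle libraries. Of named genes not past the threshold, Cd28 lay between −0.00091 and 0.65 with 1 library or mouse left out, and Mgl2 between −0.71 and 0.12. Pglyrp3 turned to −0.076 with the block, to −0.079 by limma-voom, to −0.18 on log2 TPM and to −0.86 without DNFB replicates 2 and 3, and ranged from −0.65 to 0.48 with a library or mouse left out, Prss22 ranged from −0.99 to 0.30, and Prss27 ranged from −0.17 to 1.17, with −0.24 without DNFB replicates 2 and 3. Causes of these shifts were not tested. Low counts limit Ccr3, Ccl1, Ccr8 and Ccl17.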
